A study of Sus scrofa with 6 samples.

Results

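The solute carrier (SLC) genes are the genes whose symbol is SLC followed by a digit. They were taken as all non-control probes of a porcine array whose RefSeq transcript belongs to such a pig gene. This gave 137 of 43603 probes, for 64 of 2384 genes that could be named on the array. Of the 64 genes, 62 encode carriers. The other 2, SLC9A3R1 and SLC9A3R2, encode scaffold proteins that bind sodium-hydrogen exchangers and carry an SLC symbol for that reason. The RNA was that of femoral arteries of pigs (Sus scrofa), taken ex vivo from the place where the vessel had been punctured and closed. In 3 arteries the closure was TAG, the vascular glue under study, and in 3 it was Exoseal, a marketed closure device. Breed, sex, age and time after closure are not given in the sources used here. The labels do not tie samples to animals. The p-values therefore cover only the scatter of these 3 and 3 samples, part of which may be technical. No unpunctured artery was analysed here, so each difference is between 2 kinds of closure.

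Solute carriers are membrane proteins that move small molecules and ions without splitting ATP themselves. Some let a solute run down its gradient, as the glucose transporters of the SLC2 family do. The cationic amino acid carriers CAT1, CAT2 and CAT3 do so too, drawn by the membrane potential. Others couple the solute to sodium, to protons as the monocarboxylate carriers do, or to an exchanged solute as the y+L amino acid carrier does. In an artery wall they feed smooth muscle, endothelium and invading leukocytes with glucose, lactate and arginine (the substrate of nitric oxide synthases and arginases), load the Golgi with zinc, and carry phosphate and adenine nucleotides across the inner mitochondrial membrane.

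Levels are given on a log2 scale on which 0 is the 75th percentile of the same array. Each probe is compared with itself across arrays, since probes differ in how brightly they bind. The scanner's flag for a spot well above background serves as detection. The share of all probes detected was 34.7% to 41.2% in TAG and 60.6% to 70.8% in Exoseal. Exoseal replicate 1 carries TAG in its treatment label and Exoseal in its title, by which it was grouped. It lay on slide 1 together with all TAG samples, while slide 2 held Exoseal replicates 2 and 3. The lowest detected level was -1.74, -1.25 and -1.07 on the TAG arrays and -2.42 on Exoseal replicate 1. It was -5.08 and -3.67 on Exoseal replicates 2 and 3, so a transcript could be followed to much lower levels on that slide. The listed smooth muscle markers (ACTA2, CNN1, DES and MYLK, the 4 of 8 that the array names) were detected on all 6 arrays. Their summed level was 8.81 to 9.04 in TAG and 7.95 to 8.10 in Exoseal, and that of 3 endothelial genes 2.06 to 3.13 and 3.73 to 5.67. The 4 smooth muscle genes did not move alike. Their log2 difference (TAG minus Exoseal) was 2.22 for ACTA2, 1.52 for DES, 0.73 for CNN1 and -1.37 for MYLK. The part of cell make-up in the differences below was not tested. In a bulk sample, fewer cells of a type and less RNA per cell cannot be told apart.

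Of the 64 SLC genes, 20 (31.3%) had a probe detected on all 6 arrays, against 45.8% of all 2384 named genes. A probe was detected on all 3 TAG arrays for 22 SLC genes and on all 3 Exoseal arrays for 31. The same shares over all named genes were 47.4% and 64.8%, against 34.4% and 48.4% of SLC genes. On single arrays, 30.7% to 38.0% of SLC probes were detected in TAG and 57.7% to 67.2% in Exoseal, a gap that was also present over all probes. The 20 genes span every large substrate class except nucleosides and nucleotide sugars. They included the cationic amino acid carriers SLC7A1 and SLC7A7, the sugar carriers SLC2A4 and SLC5A10, the metal carriers SLC11A1, SLC11A2, SLC30A7 and SLC39A7, and the mitochondrial carriers SLC25A3 and SLC25A6. With these went SLC26A11, an anion carrier, and 8 genes for organic solutes (SLC19A2, SLC22A2, SLC22A4, SLC22A6, SLC22A7, SLC22A13, SLC44A4 and SLC52A2). For 8 genes no probe was detected on any array. Among them were SLC2A2 (the glucose transporter of liver and beta cells), SLC25A24 and SLC25A25 (calcium-regulated mitochondrial carriers), SLC26A3 (a chloride-bicarbonate exchanger of the gut), SLC30A4 and SLC30A9 (zinc carriers) and SLC31A1 (the copper importer). SLC31A1 was measured by 1 probe. That a probe was not detected sets only a limit for that probe, and 25 of the 64 genes had 1 probe.

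**Figure D1:**
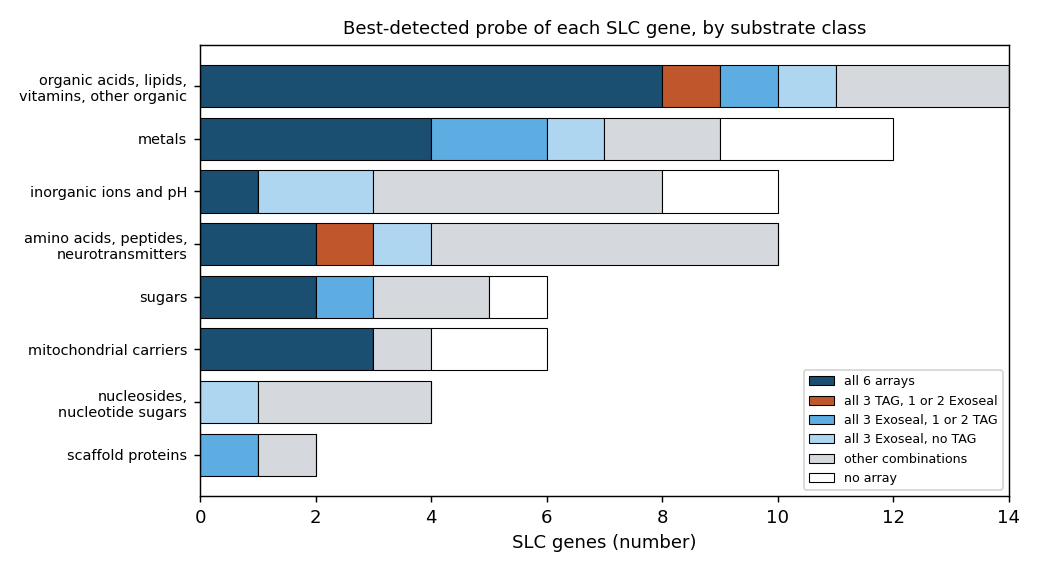
Number of SLC genes in each substrate class (bar length), split by the arrays on which the best-detected probe of the gene was well above background. Of 14 genes for organic acids, lipids, vitamins and other organic solutes, 8 were detected on all 6 arrays, of 12 metal genes 4, and of 4 nucleoside and nucleotide sugar genes none.

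The comparison of TAG with Exoseal asks which carrier transcripts distinguish vessels closed with glue from vessels closed with the device. Higher in TAG were SLC7A2 and SLC7A3 (cationic amino acid carriers), SLC16A1 (the monocarboxylate carrier MCT1), SLC52A2 (a riboflavin carrier), SLC30A7 (a zinc carrier of the Golgi) and SLC25A3 (the mitochondrial phosphate carrier). Those detected on all 6 arrays (SLC25A3, SLC30A7 and SLC52A2) were higher by 3.41-fold to 7.30-fold (n = 3 arrays per group). The 7.30-fold is that of the brightest of 3 probes of SLC52A2. The other 2 had 1.32-fold and 1.30-fold and did not pass. SLC7A3 is given no fold, since 2 of its Exoseal values lay below the detection limits of their arrays. Lower in TAG were SLC7A7 (the light chain of the y+L amino acid exchanger) by 3.94-fold and SLC5A4 (a member of the sodium-glucose family). SLC5A4 is given no fold either, since 2 of its TAG values lay below the detection limits of their arrays. The genes higher and lower in TAG were 8 of 35 SLC genes that were detected on at least 3 of 6 arrays and tested, 22.9%. Over all 20857 features tested with limma, 10.3% passed an adjusted p of 0.05, and among the 1614 with a gene name 8.61%. For genes higher in TAG the counts were 6 of 35 and 6.59% of all features, and for genes lower 2 of 35 and 3.67%. The median log2 difference was 0.38 over the 35 genes and 0.03 over all features. In 13 of the 35 genes (35.7% of all features) the 2 groups did not overlap, which is near the share over all features, and the 8 genes that passed are among them. Of these 8, 4 were detected on all 6 arrays (SLC7A7, SLC25A3, SLC30A7 and SLC52A2) and 4 were not (SLC5A4, SLC7A2, SLC7A3 and SLC16A1).

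The count rests on all 6 arrays. Without Exoseal replicate 1, the array with 2 labels, 18 SLC genes passed (13 higher, 5 lower), the 8 among them. Of all 20857 features 6957 passed there, against 2139 with all arrays. In that comparison all TAG arrays lie on slide 1 and all Exoseal arrays on slide 2, so group and slide cannot be told apart. With the same array counted as TAG, as its treatment label says, 9 SLC genes passed (8 higher, 1 lower). Of these, 3 were among the 8 (SLC7A3, SLC16A1 and SLC52A2), and of all features 3529 passed. SLC7A7 (-1.61, adjusted p = 0.0887), SLC5A4 (-0.99, 0.276), SLC7A2 (1.06, 0.380), SLC30A7 (1.47, 0.207) and SLC25A3 (1.57, 0.0728) did not pass there. Without TAG replicate 1, 2 or 3, or Exoseal replicate 2 or 3, 0 SLC genes and 0 of all features passed in limma. At an unadjusted p under 0.05 there were 10 to 13 SLC genes, against 13 with all arrays. With slide as a block 3 passed, 2 of them among the 8 (SLC7A2 and SLC30A7), and of all features 1849 passed. Within slide 1 Exoseal replicate 1 stands alone against TAG, so its spread is taken to be that of the TAG arrays. The groups of the 8 genes do not overlap, so the sign within slide 1 was fixed. Raising every level below -1.07 to -1.07, the highest of the detection limits, is called a common floor here. With it 4 of the 8 passed (SLC5A4, SLC7A7, SLC25A3 and SLC30A7) and no other SLC gene, and of all features 882 passed. The split of 6 higher and 2 lower became 3 and 3 with median scaling, 2 and 2 with normexp and quantile scaling, and 4 and 3 with the authors' values. It was 6 and 1 when the percentile was taken over the probes that all 6 arrays detected. Median scaling moved the median of all features to -0.43 and that of the 35 genes to -0.09, and the percentile of detected probes moved them to 0.17 and 0.51. The common floor moved them to 0 and 0.02.

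**Figure D2:**
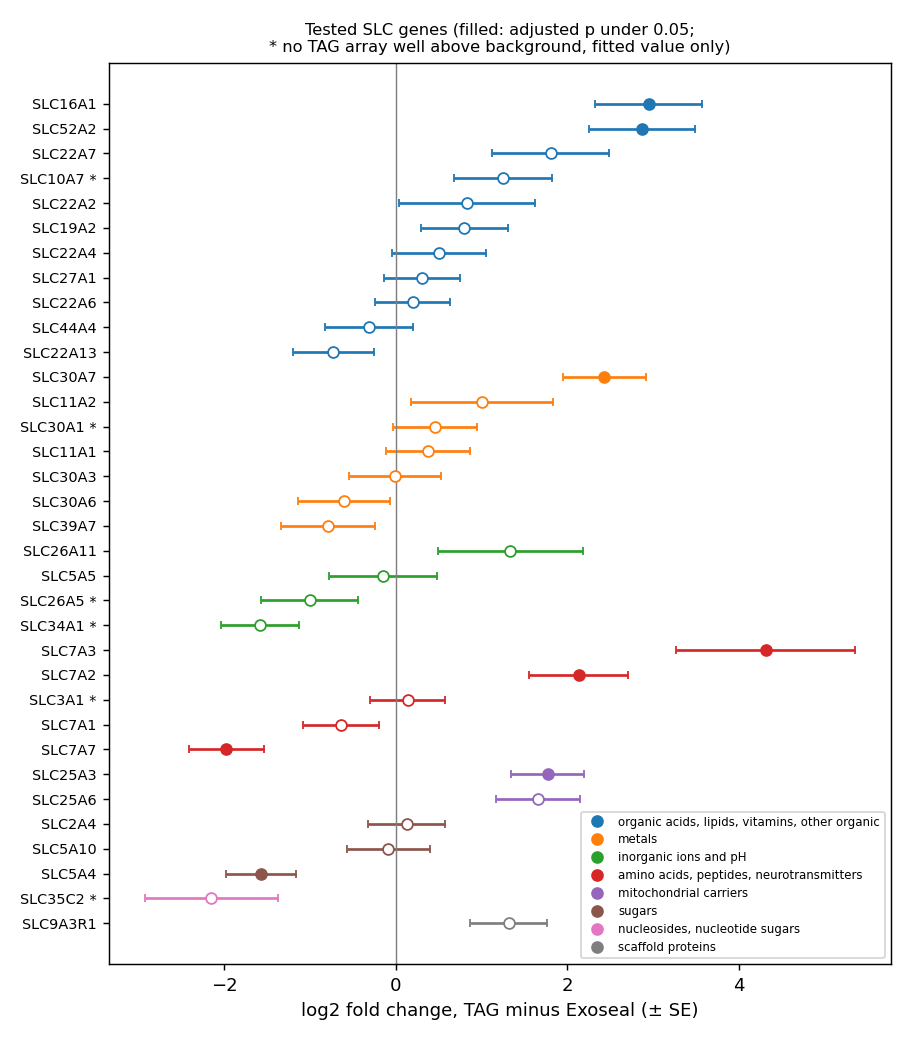
Log2 fold change (TAG minus Exoseal, horizontal axis) with its standard error for the tested SLC genes reported here, coloured by substrate class and filled where the adjusted p was under 0.05. The 6 genes marked with an asterisk had no TAG array well above background, and their points are fitted values. SLC7A3 has the widest error bar, and the mitochondrial carriers SLC25A3 and SLC25A6 lie to the right of 0.

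Among 10 genes for amino acids, peptides and neurotransmitters 5 were tested, of which 2 rose and 1 fell. SLC7A7 encodes a light chain that exchanges cationic for neutral amino acids and is known in macrophages and epithelia. Its brightest probe had levels of 0.01, 0.10 and -0.52 in TAG and 1.67, 2.21 and 1.64 in Exoseal. Every Exoseal array lay above every TAG array, and all 6 were detected. The log2 fold change was -1.98 ± 0.44 (SE, limma adjusted p = 0.0302), -1.81 within slide 1 and -1.98 with the common floor. As the mean of its tested probes SLC7A7 did not pass (-1.35, adjusted p = 0.0631), and median scaling gave -2.44.

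SLC7A2, the carrier CAT2 that supplies arginine to activated macrophages and smooth muscle, had 0.11, -0.96 and 0.81 in TAG and -2.86, -2.04 and -1.54 in Exoseal. The groups did not overlap, and it was detected on all TAG arrays and 2 of 3 Exoseal arrays. It rose by 2.13 ± 0.58 on the log2 scale (adjusted p = 0.0469), and by 2.85 within slide 1, where the lone Exoseal value was below detection. With the common floor it had 1.06 and did not pass (0.315). SLC7A3, the related carrier CAT3, was the weakest measurement among the genes that passed. Its levels were -0.84, -1.32 and -0.41 in TAG, detected on 2 of 3 arrays, and -2.33, -7.23 and -5.93 in Exoseal, detected on replicate 1 alone. The fitted log2 difference of 4.31 ± 1.04 (adjusted p = 0.0360) thus rests on 2 undetected Exoseal values from the other slide and is not a measured fold. It was 1.48 within slide 1 (0.0872) and 0.29 with the common floor (0.438). SLC7A1, the widely expressed carrier CAT1, was detected on all arrays with 1.95, 1.96 and 2.14 in TAG and 2.45, 3.20 and 2.32 in Exoseal. TAG lay below Exoseal on every array, with a log2 difference of -0.64 ± 0.44 that did not pass (0.363).

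SLC3A1, the heavy chain of the cystine transporter, was not detected on any TAG array, with Exoseal levels of -1.49, -1.25 and -1.97. No fold is given, since the Exoseal levels do not exceed the TAG detection limits on average. The other 5 genes were detected on too few arrays to be tested. SLC15A1 and SLC15A2 (peptide carriers), SLC1A1 (a glutamate carrier) and SLC6A8 (the creatine carrier) were seen on Exoseal arrays alone. SLC7A9, the light chain that pairs with SLC3A1, had 2 probes. The brightest was detected on 2 TAG arrays (-0.72 and 0.85) and on no Exoseal array. Its value on TAG replicate 1 (-1.74) was not detected, so no fold is given. The other probe was detected on Exoseal replicate 1 alone.

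SLC7A7 was lower in TAG, as were some listed macrophage markers but not others. Of 9 listed macrophage genes 7 were named on the array, and 4 of them fell in TAG (LYZ, AIF1, CD86 and ACP5). The summed level of the 7 ran from 3.75 to 4.45 in TAG and from 6.13 to 7.32 in Exoseal, with no overlap, and each of the 7 was detected on at least 3 arrays. CD163 and CD14, 2 defining macrophage genes, did not pass (0.10 and 0.23). The part of macrophage number in the SLC7A7 difference was not tested. SLC11A1, the divalent metal carrier of macrophage phagosomes, is described with the metal carriers below.

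**Figure D3:**
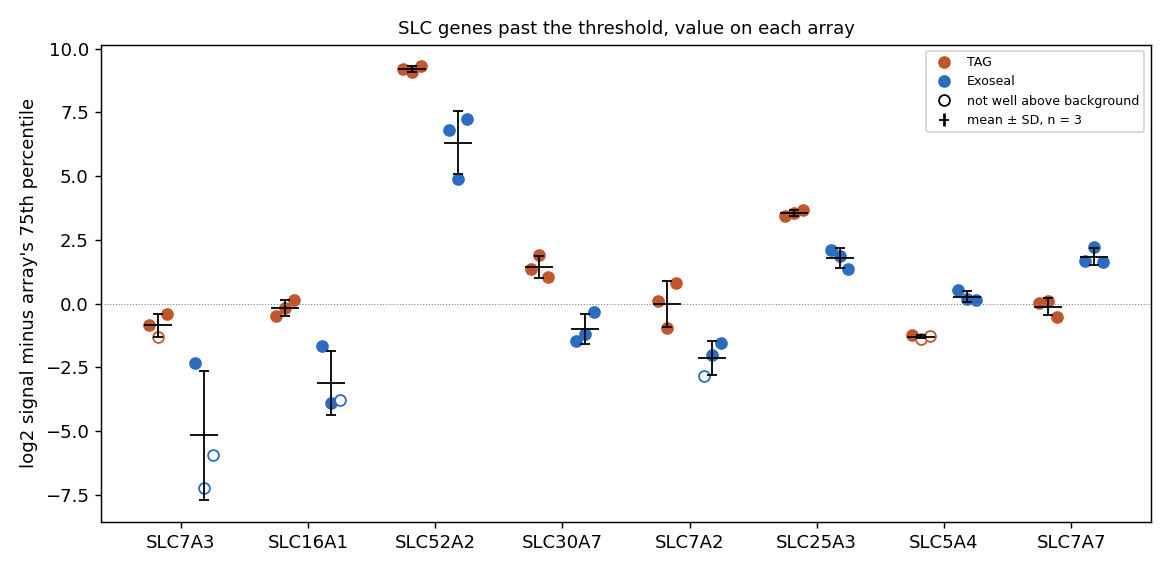
Level on each array (vertical axis, log2, with 0 at the 75th percentile of the array) of the 8 SLC genes past the threshold, for 3 TAG and 3 Exoseal arrays, with the mean and SD as bars. Open points were not well above background. The groups do not overlap for any of the 8, and for SLC7A3 2 of 3 Exoseal points are open and lie near the bottom of the scale.

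Among 6 sugar carriers 3 were tested, and SLC5A4 fell. Its levels were -1.25, -1.37 and -1.29 in TAG and 0.51, 0.16 and 0.12 in Exoseal. The TAG values lay close together and below all Exoseal values, but only 1 of 3 was detected. The fitted log2 difference, which rests in part on undetected TAG values, was -1.57 ± 0.41 (adjusted p = 0.0430). It was -1.82 within slide 1 and -1.33 with the common floor (0.0155), and SLC5A4 was measured by 1 probe. When scaled by the probes that every array detected it did not pass (-1.43, 0.0662), and normexp with quantile scaling gave -0.75 (0.0331). SLC2A4, the insulin-responsive glucose transporter GLUT4 of muscle and fat, was detected on all 6 arrays. It had 2.81, 3.78 and 3.25 in TAG and 3.39, 2.91 and 3.17 in Exoseal. The groups overlapped, with a log2 difference of 0.13 ± 0.45 (adjusted p = 0.879). Skeletal muscle and fat also express SLC2A4. The summed level of 7 skeletal muscle genes was 5.85 to 6.11 in TAG and 4.36 to 5.13 in Exoseal, and that of 6 fat genes 6.34 to 6.53 and 6.35 to 6.93. The skeletal muscle gap follows ACTA1 (2.48), while MYH2 (-1.80), TNNT3 (-1.09) and MYH7 (-0.70) had the opposite sign and did not pass. Of the fat genes FABP4 had 6.30 to 6.51 in TAG, close to the whole sum, and ADIPOQ, LEP and CIDEC were detected on no TAG array. Their part in the level of SLC2A4 was not tested. SLC5A10, a sodium-coupled sugar carrier known from kidney, had 1.27, 1.31 and 1.26 in TAG and 2.01, 0.54 and 1.54 in Exoseal. Its Exoseal values lay on both sides of the TAG values (-0.09 ± 0.49, adjusted p = 0.925). SLC5A1, the intestinal sodium-glucose carrier, and SLC5A11, a sodium-coupled inositol carrier, were seen on Exoseal arrays alone and not tested.

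Of 12 metal carriers 7 were tested and 1 rose. SLC30A7, which moves zinc from the cytosol into the Golgi, had 1.36, 1.89 and 1.03 in TAG and -1.48, -1.18 and -0.35 in Exoseal. All 6 values were detected, and the lowest TAG array lay above the highest Exoseal array. The log2 fold change was 2.43 ± 0.48 (adjusted p = 0.0248), 5.40-fold, from 1 probe. It was 2.91 within slide 1 and 2.25 with the common floor (0.0404). Median scaling gave 1.97 and an adjusted p of 0.0769, and normexp with quantile scaling 1.21 (0.0337).

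SLC39A7, the zinc carrier of the endoplasmic reticulum and Golgi that runs the opposite way, did not pass by its brightest probe. That probe had 3.14, 4.22 and 3.48 in TAG and 3.42, 4.96 and 4.84 in Exoseal (-0.79 ± 0.55, adjusted p = 0.370). Its second probe had 0.18, 0.42 and 0.19 in TAG and -0.86, -1.54 and -1.84 in Exoseal, and there TAG lay above Exoseal on every array. When every probe was its own feature, this second probe passed at 1.68 ± 0.44 (adjusted p = 0.0434), so the direction for SLC39A7 depends on the probe. The remaining tested zinc carriers did not pass. SLC30A3 had -0.01 ± 0.53 (adjusted p = 0.989) and SLC30A6 -0.61 ± 0.53 (0.486, detected on 1 of 3 TAG arrays). SLC30A1, the zinc exporter of the plasma membrane, was detected on all Exoseal arrays (-1.81, -2.58 and -3.10) and on no TAG array. At those levels TAG arrays could not detect it, and no fold is given. SLC30A2 and SLC30A5 were seen on 2 Exoseal arrays at most and were not tested.

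The iron and manganese carriers differed by probe as well. SLC11A1 (NRAMP1) had 1.22, 1.88 and 1.18 in TAG and 0.35, 1.66 and 1.14 in Exoseal by its brightest probe, with overlapping groups (0.38 ± 0.49, adjusted p = 0.653). Its other probe was not detected on any TAG array and had -1.16, 1.19 and -0.90 in Exoseal. By that probe SLC11A1 was at least 2.09-fold lower in TAG. It entered the fit of all probes through the Exoseal arrays alone. The adjusted p of 0.0286 belongs to the fitted difference from undetected TAG values, and with the common floor it did not pass (0.587). The summed macrophage level given for SLC7A7 stands beside this result too, and its part was not tested. SLC11A2 (DMT1), the iron importer of endosomes, was detected on all 6 arrays by its brightest probe, with -0.85, -0.74 and -0.51 in TAG and 0.26, -3.58 and -1.80 in Exoseal. Exoseal replicate 1 lay above all TAG arrays and the other 2 below them (1.00 ± 0.82, adjusted p = 0.449). The other probe of SLC11A2 was detected on all TAG arrays and on no Exoseal array, at least 8.57-fold higher in TAG. That bound draws on the low detection limits of Exoseal replicates 2 and 3. Within slide 1, where the lone Exoseal value was not detected, the log2 difference of this probe was 1.84. The probe entered the test through TAG alone, and its adjusted p of 0.0283 belongs to the fitted difference. With the common floor it had 0.44 and did not pass (0.391).

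Of the 6 mitochondrial carriers 3 were tested and 1 passed. SLC25A3 imports phosphate for ATP synthesis. By its brightest probe it had 3.45, 3.55 and 3.66 in TAG and 2.11, 1.88 and 1.36 in Exoseal. The TAG arrays spanned a narrow range that lay wholly above Exoseal. The log2 fold change was 1.77 ± 0.43 (adjusted p = 0.0356) and 1.44 within slide 1, where it did not pass (0.0596). Median scaling gave 1.31 (0.112). SLC25A3 was measured by 10 probes, each detected on all 6 arrays, and all 10 had higher means in TAG. Their log2 fold changes ran from 0.87 to 2.29, and 7 of the 10 passed in the fit of all probes, where 7.06% of 22720 probes passed as higher in TAG. The 10 probes answer to 1 transcript and share the 6 arrays, so they are not independent measurements of the samples.

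SLC25A6, an adenine nucleotide carrier that exchanges ADP and ATP, had 7.67, 8.19 and 7.89 in TAG and 6.60, 5.42 and 6.75 in Exoseal by its brightest probe. The groups did not overlap, and the log2 difference of 1.66 ± 0.49 missed the threshold (adjusted p = 0.0602). It passed when only features detected on all 6 arrays were tested (0.0380). The next 2 probes, also detected on all arrays, had 0.27 and -0.22, and the other 3 tested probes 1.43, 1.68 and 0.94. Thus 5 of the 6 probes of SLC25A6 were positive, and none passed. SLC25A27, an uncoupling protein homologue of brain, was seen on 1 Exoseal array.

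The class for organic acids, lipids, vitamins and other organic solutes held 14 genes, of which 11 were tested and 2 rose. SLC16A1, which moves lactate and pyruvate with protons, had -0.49, -0.19 and 0.12 in TAG and -1.68, -3.92 and -3.79 in Exoseal. It was detected on every TAG array and on 2 of 3 Exoseal arrays, and the groups did not overlap. The log2 fold change was 2.95 ± 0.63 (adjusted p = 0.0287). Exoseal replicate 1 lay closer to TAG than the other Exoseal arrays, and within slide 1 the difference was 1.50 (0.0670). With the common floor it was 0.88 (0.0677), and normexp with quantile scaling gave 0.62 (0.0511). A second probe of SLC16A1 was detected on Exoseal replicates 2 and 3 alone, at -2.19 and -1.72, near or below the detection limits of the TAG arrays. It was not tested and did not show the rise seen with the brightest probe.

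SLC52A2, a riboflavin carrier of the plasma membrane, was the other gene of this class that rose. Its brightest probe had 9.18, 9.06 and 9.30 in TAG and 6.79, 4.90 and 7.25 in Exoseal. All values were well above background, the TAG arrays lay close together and Exoseal replicate 2 was the lowest. The log2 fold change was 2.87 ± 0.62 (adjusted p = 0.0292), or 7.30-fold. The other 2 probes of the gene, dimmer but detected on all 6 arrays, had 0.40 and 0.38 and did not pass. Their mean levels in TAG were 1.16 and -0.39, and within slide 1 they differed by 0.88 and -1.47. As the mean of the probes SLC52A2 did not pass (1.22, 0.134). Normexp with quantile scaling gave 1.79 (0.137), the authors' deposited values gave 1.82 (0.0852) when fitted, and the common floor, which leaves this gene's levels as they were, gave an adjusted p of 0.101.

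Organic ion carriers of the SLC22 family, known chiefly from kidney and liver, were detected without passing the test. SLC22A6 (the organic anion carrier OAT1) had 2.63, 2.25 and 2.43 in TAG and 2.25, 1.79 and 2.66 in Exoseal, which overlapped (0.20 ± 0.44, adjusted p = 0.798). Its second probe was not detected on any TAG array. SLC22A4 (the ergothioneine carrier OCTN1) had 2.81, 1.65 and 3.33 in TAG and 2.57, 1.55 and 2.17 in Exoseal (0.50 ± 0.55, 0.584). SLC22A7 (OAT2) had 0.88, 1.66 and 2.37 in TAG and 0.99, -1.55 and 0.05 in Exoseal, and the groups overlapped through Exoseal replicate 1 (1.81 ± 0.68, 0.113). Without that array SLC22A7 passed at 2.39 (0.00361), with group and slide then the same. Within slide 1 the difference was 0.64 (0.491). SLC22A13 had 0.10, -0.39 and -0.26 in TAG and 0.36, 0.07 and 1.22 in Exoseal (-0.73 ± 0.47, 0.328).

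SLC22A2 (the organic cation carrier OCT2) gave opposite signs by probe. The brightest probe had -1.03, -0.74 and -0.52 in TAG and 0.46, -2.98 and -2.25 in Exoseal, with Exoseal replicate 1 above and the other 2 below TAG (0.83 ± 0.79, adjusted p = 0.522). A second probe was detected on all Exoseal arrays (-0.78, -1.53 and -0.99) and on no TAG array. By it SLC22A2 was at least 1.19-fold lower in TAG. It entered the test through Exoseal alone, its adjusted p of 0.0244 belongs to the fitted difference, and it did not pass with the common floor (0.480). SLC22A8 (OAT3) was detected on 1 TAG array and no Exoseal array.

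The remaining genes of the class did not pass. SLC19A2, a thiamine carrier, had -0.34, -0.33 and -0.01 in TAG and -1.76, -0.16 and -1.16 in Exoseal (0.80 ± 0.51, adjusted p = 0.322). SLC44A4, a choline-like carrier, had -0.31 ± 0.51 (0.727), and SLC27A1, which takes up long-chain fatty acids in muscle and fat, had 0.31 ± 0.44 (0.684, detected on 1 of 3 TAG arrays). SLC10A7 was detected on all Exoseal arrays at -1.67, -3.75 and -2.63 and on no TAG array. Its Exoseal mean lay below the TAG limits, so no fold is given. SLC17A1 (a phosphate and urate carrier) and SLC23A2 (an ascorbate carrier) were seen on Exoseal arrays alone and not tested.

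Of 10 carriers for inorganic ions 4 were tested and none passed. SLC34A1, a sodium-phosphate carrier of the kidney, was detected on all Exoseal arrays at -1.34, -2.35 and -1.89 and on no TAG array. It entered the test through Exoseal alone, and its adjusted p of 0.0547 belongs to the fitted difference from undetected TAG values. With the common floor the difference was 0, since every array lay below it. Its Exoseal levels did not exceed the TAG limits on average, so no fold is given. SLC26A5 (prestin, of the cochlea) was likewise detected on Exoseal arrays alone, at -0.82, -1.90 and -0.99, at least 1.07-fold lower in TAG. Its adjusted p of 0.263 is of the same kind. SLC26A11 had -0.65, -0.80 and -0.22 in TAG and 0.23, -3.68 and -2.22 in Exoseal (1.33 ± 0.85, 0.323). Here again Exoseal replicate 1 lay above TAG and the other 2 below. SLC5A5, the iodide carrier of the thyroid, was detected on 1 TAG and 2 Exoseal arrays (-0.15 ± 0.63, 0.896). The potassium-chloride carrier SLC12A4, the bicarbonate carrier SLC4A4, SLC9A2 and SLC26A6 were seen on Exoseal arrays alone.

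Among 4 carriers of nucleosides and nucleotide sugars SLC35C2, a Golgi protein linked to fucose on Notch, was the 1 tested. It was not detected on any TAG array and had -1.69, 0.88 and 1.45 in Exoseal. It was at least 2.70-fold lower in TAG, and did not pass (adjusted p = 0.101). SLC35C2 entered the test through Exoseal alone, so that p belongs to the fitted difference from undetected TAG values. Exoseal replicate 1 lay within the range of the TAG values of -1.34, -1.88 and -2.59. SLC35A3 and SLC35A4 were seen on Exoseal arrays alone, and SLC28A1, a nucleoside carrier, on 1 array of each group. Of the 2 scaffold genes SLC9A3R1 was tested, with -1.42, -1.52 and -0.76 in TAG and -2.27, -2.46 and -2.91 in Exoseal. TAG lay above Exoseal on every array (1.32 ± 0.45, adjusted p = 0.0848), and with 1 of 3 TAG arrays detected the common floor gave 0.10. SLC9A3R2 was not detected on any TAG array.

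Probe agreement could be described for 15 SLC genes with at least 2 tested probes. In 9 of them (60.0%) all probes had the same sign of the difference, against 47.4% of 732 named genes. The gap between the highest and the lowest log2 fold change of a gene's probes had a median of 1.43 in SLC genes and 1.34 in all named genes. Among the genes whose probes had 1 sign, all probes of SLC2A4, SLC3A1, SLC11A2, SLC25A3 and SLC52A2 were positive, and all of SLC5A5, SLC7A7 and SLC44A4 negative. Probes with opposite signs were found in SLC11A1, SLC22A2, SLC22A6, SLC25A6, SLC30A1 and SLC39A7. In the fit of all probes 18 of 67 SLC probes passed (14 higher, 4 lower), against 10.8% of all 22720 probes (7.06% higher and 3.69% lower), and 7 of the 18 were those of SLC25A3. Besides the probes of the 8 genes that passed, these 18 held 1 probe each of SLC11A1, SLC11A2, SLC22A2 and SLC39A7 that was not the brightest. In SLC7A7 the second tested probe, not detected on any TAG array, had -0.72 ± 0.47 and did not pass. For 5 of the 8 genes that passed (SLC5A4, SLC7A2, SLC7A3, SLC16A1 and SLC30A7) no second probe was tested, so their values rest on 1 probe.

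**Figure D4:**
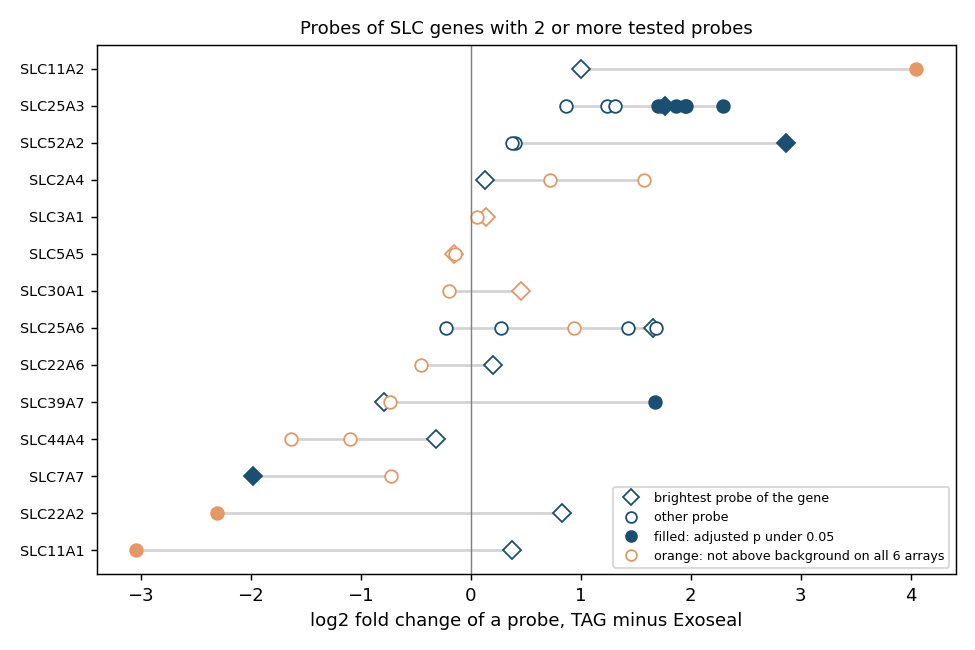
Log2 fold change (TAG minus Exoseal, horizontal axis) of each tested probe of the SLC genes reported here that had at least 2 tested probes. Diamonds mark the brightest probe of a gene, filled symbols an adjusted p under 0.05 among all probes, and orange symbols probes not above background on all 6 arrays, for which the fitted value is drawn. The 10 probes of SLC25A3 all lie right of 0, and the called probes of SLC11A1 and SLC22A2 lie on the other side of 0 from the brightest probe.

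Other membrane transport genes give a frame for the carriers. The array named 32 such genes (pumps, ABC proteins, aquaporins, mitochondrial porins, SLCO2A1, FLVCR1, FLVCR2, MFSD6 and BSG). Of 25 tested, 2 passed as higher and 1 as lower, while over all features 6.59% passed as higher and 3.67% as lower. The median log2 difference was 0.53, and 0.03 over all features. VDAC1, the porin through which metabolites cross the outer mitochondrial membrane, had -0.02, 0.42 and 0.23 in TAG and -1.95, -1.79 and -2.50 in Exoseal. It rose by 2.29 ± 0.43 (adjusted p = 0.0232), and by 2.16 within slide 1. VDAC2 and VDAC3 had 1.14 and 1.26 and did not pass. ABCF1, an ABC protein that acts in translation and not in transport, rose by 2.81 ± 0.67 (0.0351), and it did not pass with the common floor (0.134). FLVCR2, a carrier of choline and haem, was the gene counted as lower, and it entered the test through its Exoseal arrays alone. Its levels were -1.76, -1.47 and -2.99 in TAG, none detected, and 1.32, 0.97 and 0.44 in Exoseal, and the groups did not overlap (adjusted p = 0.0223, and -1.98 with the common floor, 0.0292). BSG, the chaperone that brings SLC16A1 to the membrane, had -1.23, -0.76 and -0.79 in TAG and -0.96, -4.22 and -3.59 in Exoseal, and the groups overlapped through Exoseal replicate 1 (2.00 ± 0.77, adjusted p = 0.116). The prostaglandin carrier SLCO2A1 had 0.16 ± 0.47 (0.846).

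**Figure D5:**
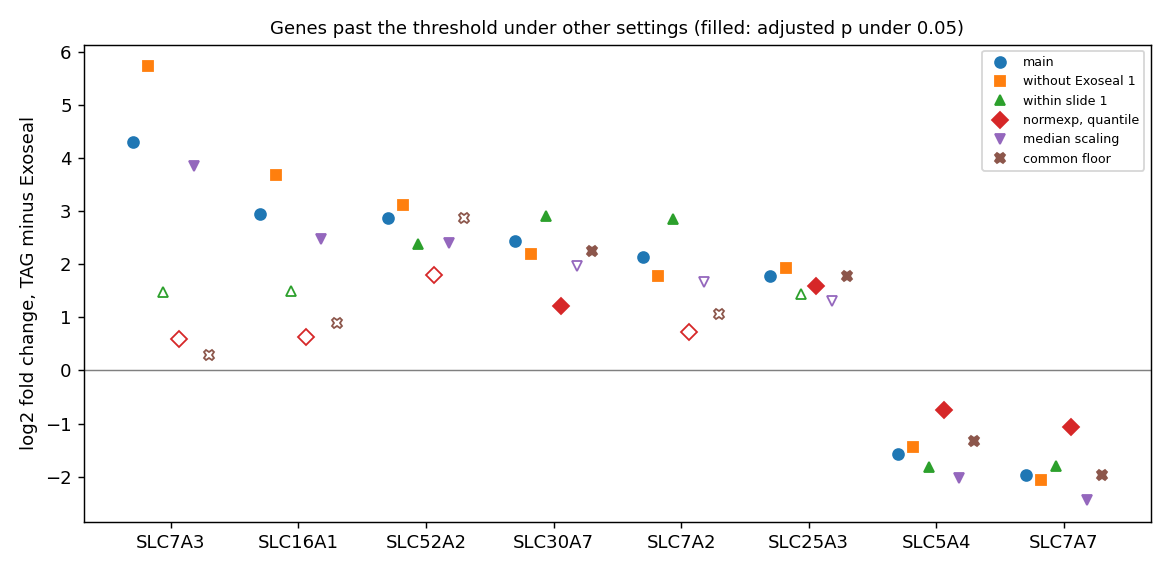
Log2 fold change (TAG minus Exoseal, vertical axis) of the 8 SLC genes past the threshold with all arrays and under 5 other settings, filled where the adjusted p was under 0.05. No point changes sign, which could not happen without Exoseal replicate 1, within slide 1 or with the common floor. The values of SLC7A3 run from 0.29 with the common floor to 5.73 without Exoseal replicate 1, while those of SLC25A3 run from 1.31 to 1.93.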

How the data were processed

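RNA of 6 arteries was labelled with Cy3 and hybridised to a 1-colour Agilent array each, per the labels' protocols. The deposited scanner output gives an intensity per spot from Agilent Feature Extraction 11.0.1.1, per the file headers, and its processed signal is background-subtracted within the array and not scaled between arrays. The authors' deposited table of the series holds log2 values with a shared median of 3.40 in all 6 columns, with the scaling method not stated. Groups follow the sample titles.

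Control spots (1417 of 45220 on each array) and spots with an outlier flag were left out, and 43380 of 43603 probes remained. No spot was saturated. Each array's 75th percentile was subtracted from its log2 processed signals. RefSeq accessions named 5435 probes, through a gene table of assembly Sscrofa11.1 that served only to give symbols. The brightest probe stood for a gene. Features detected on at least 3 of 6 arrays were fitted together with limma 3.58.1 in R 4.3.3 (two-sided, no covariates, Benjamini-Hochberg, threshold 0.05), and all probes likewise in a second fit. The test was also run on simulated data. Errors of differences are standard errors.

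Where no array of a group detected a probe and every array of the other group did, a lower bound of the fold is given. It sets the mean of the bright group against a mean over the dim group. Each dim array counts there with the higher of the probe's level and the lowest level of any probe detected on that array. Some undetected probes lie above that lowest level, so the bound is approximate. The number of arrays limits the precision. A summed level is the log2 of the summed linear signals relative to the 75th percentile. The mean-signal column that normexp was to use is not in these files, so the median signal stood in for it, with an offset of 50. SLC genes were named, except a few that are counted but not reported here by name, with every array given for genes that passed and for up to 3 tested genes of each class with the smallest p, and some others, chosen after their values were seen, as were the other transport genes that are named. Genes, substrate classes, marker lists and tests were chosen with earlier results of these data known. The common floor was added after the data were examined. No probe or transcript sequences and no coordinates were used here.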

Additional observations from a re-analysis of the deposited data

How the results depend on the processing

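With the alternatives, the counts of SLC genes, SLC probes and all features past the threshold (8, 18 and 2139) moved as follows. Median scaling gave 10 SLC probes and 1105 features. Normexp with quantile scaling gave 4, 11 and 1134. Without a filter on dim features 0, 0 and 0 passed in limma, with 25, 45 and 13159 at an unadjusted p under 0.05. Features detected on all 6 arrays gave 5 SLC genes. Slide as a block gave 3 SLC genes and 7 SLC probes. Exoseal replicate 1 counted as TAG gave 9 SLC genes, 3 of them among the 8, and 3529 features. The common floor gave 4, 9 and 882. Leaving out 1 array gave 0 to 18 SLC genes, 0 to 36 SLC probes and 0 to 6957 features. With the weaker flag for a positive and significant spot, 42 SLC genes rather than 20 were detected on all 6 arrays. With the replicate number as a block 0, 0 and 0 passed in limma, with 13, 28 and 5699 at an unadjusted p under 0.05. The same-numbered arrays deviated from their group means with correlations of -0.20, 0.07 and -0.08, so the numbers do not pair the samples. Each of the 8 genes kept its sign under all 17 or 18 alternatives that gave it a value. The genes stayed past the threshold under 5 (SLC7A2) to 9 (SLC30A7) of them. Under many alternatives the sign could not change. Groups that do not overlap fix it where arrays are left out, with slide as a block and with the common floor. Another filter or the replicate block leaves the difference as it was. So does the mean of the probes for the 5 genes with 1 tested probe. Only the other scalings, the authors' values, the changed label and the mean of several probes could have reversed it. On TAG arrays, levels below the limits of -1.74 to -1.07 could not be detected.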
